A study of Mus musculus with 57 samples.

Results

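The cells described are mouse T helper 2 (Th2) cells that carried the transcript of Nts, the gene of the neuropeptide neurotensin. Cells were chosen by their level of Nts in TPM, a measure of transcript abundance that is normalised for gene length and library size. A cell counted as an Nts cell at 100 TPM of Nts or more, and as one of the other cells below 10 TPM. Of the 56 single cells of the series, 22 were Nts cells and 29 were other cells, 3 lay between and were not used, and 2 (T3_2 and T3_5) were left out by the rule, with 3096 genes detected in T3_2 and 8396 in T3_5. The Nts cells were thus 40.7% of the 54 cells kept (exact Clopper-Pearson 95% interval 27.6 to 55.0%, which covers counting error only).

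Both groups come from the same culture scheme and differ by no treatment. All cells were wild-type CD4+ T cells from spleens of 8-week-old C57BL/6 mice, differentiated with IL-4 while interferon gamma was blocked by an antibody, given IL-2 at day 2, cultured for 5 days and stimulated again with antibodies to CD3 and CD28. A Fluidigm C1, an instrument that isolates single cells in microfluidic chambers, was used to capture them, and the titles number them within 5 sets, T1 to T5, whose meaning the labels do not give. Since the labels tell no animals or cultures apart, the 51 cells compared are 1 sample, and no test between the groups was run. Every difference below is a description of these cells.

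Neurotensin is made as part of a longer precursor that also holds neuromedin N, and convertases cut the active peptides out of it. It is best known from the brain and from endocrine cells of the gut, where it acts through G protein-coupled receptors and is broken down by peptidases such as neurolysin and thimet oligopeptidase. In rat cells, AP-1 and cyclic AMP response elements and the glucocorticoid receptor act on the promoter of the gene.

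The stretch upstream of Nts is shown because such elements can be read in it directly. It is the 250 bases before the start of the gene in RefSeq on GRCm38.p6, chr10:102490419-102490668, minus strand. Capitals mark the AP-1 motif TGAGTCA, 207 bases before the start, and the CRE-like motif TGACATCA, 67 bases before it.
Nts: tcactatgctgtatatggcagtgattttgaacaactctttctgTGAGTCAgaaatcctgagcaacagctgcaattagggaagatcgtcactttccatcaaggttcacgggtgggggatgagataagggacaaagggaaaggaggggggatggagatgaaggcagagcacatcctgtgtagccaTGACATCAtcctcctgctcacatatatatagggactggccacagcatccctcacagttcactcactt

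Nts itself chose the groups, so its levels are given as a description. It had a lowest, median and highest value of 133, 2636 and 18065 TPM in Nts cells, against 0, 1 and 9 TPM in other cells. The highest cell was T2_10, and 12 Nts cells had 1000 TPM or more. Nts was listed at 0 in 11 of the other cells and at 1 TPM or more in 18 of them. The values just inside the upper threshold were 133 TPM in T3_11, 194 in T4_8 and 320 in T4_12. Those just inside the lower threshold were 9 TPM in T2_6 and 6 TPM in T1_2 and T5_1. The cells between held 18 TPM (T2_7), 20 TPM (T1_1) and 26 TPM (T3_6). By its mean over the 54 cells, Nts ranked 62 among all genes, and 5 cells held 63.2% of all its TPM.

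**Figure D1:**
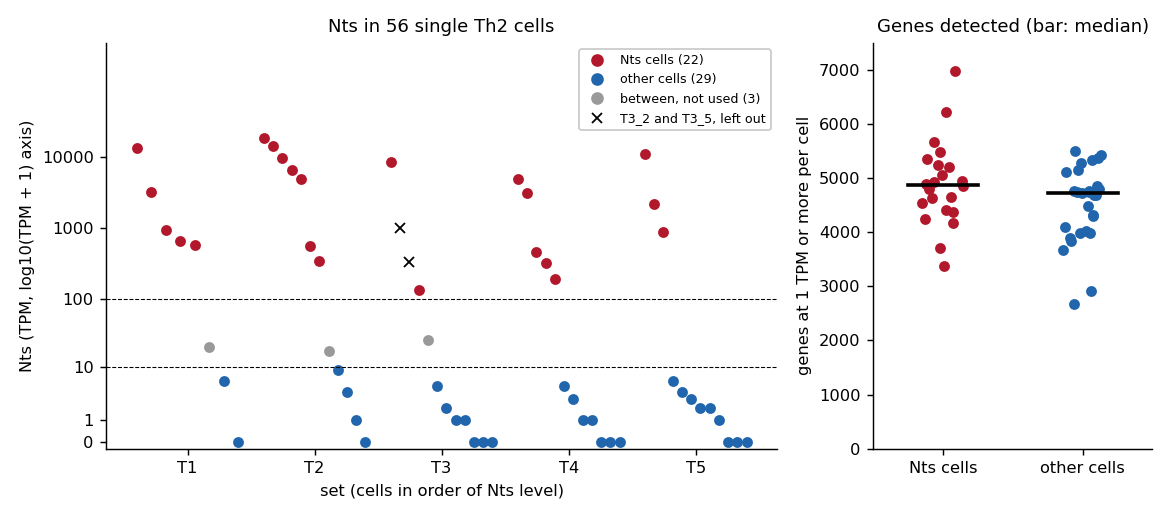
Left, Nts in each of the 56 cells by set (TPM, log axis of TPM + 1), with crosses for T3_2 and T3_5, grey points for the 3 cells between and dashed lines at 100 and 10 TPM; right, genes at 1 TPM or more per cell, with bars at the medians. The Nts cells lie between 133 and 18065 TPM and the other cells between 0 and 9 TPM, both groups are in all 5 sets, and the median cell had 4869 genes in Nts cells and 4725 in other cells.

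The Nts cells were unevenly spread over the sets. They were 5 of the 7 cells used in T1 (71.4%, interval 29.04 to 96.3%), 7 of 11 in T2 (63.6%, 30.8 to 89.1%), 2 of 9 in T3 (22.2%, 2.81 to 60.0%), 5 of 12 in T4 (41.7%, 15.2 to 72.3%) and 3 of 12 in T5 (25%, 5.49 to 57.2%). These intervals overlap. The Nts cells also had somewhat more genes at 1 TPM or more, with a lowest, median and highest of 3380, 4869 and 6983, against 2679, 4725 and 5502 in other cells. Within sets, the median was higher in Nts cells in T2 to T5 and lower in T1 (4623 in Nts cells, against 5133.5 in other cells). The part of set and of genes detected in the differences was not tested, and values with both as terms of a linear model stand beside the results.

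The identity of the cells was read from T cell genes and from 7 lists of markers of other cell types. Cd3d, a chain of the T cell receptor complex, was detected in 22 of 22 Nts cells and 29 of 29 other cells. So was Gata3, the master regulator of Th2 cells, at a mean of 820 TPM in Nts cells and 1071 TPM in other cells. Other T cell and Th2 markers were less uniform. Cd3g was detected in 21 Nts cells and 29 other cells, and Cd4 in 19 Nts cells and 16 other cells. Il4 was detected in 22 Nts cells and 27 other cells, Il13 in 18 and 12, and Il5 in 8 and 5. Cd3e and Cd2 were detected in all cells of both groups. Of the 70 marker symbols of other cell types, 9 were analysed here. Cd8b1, a marker of CD8 T cells, was listed at 0 in every cell of both groups. The mast cell and basophil genes Cpa3 and Hdc summed to 0 to 160 TPM in Nts cells and 0 to 5 TPM in other cells, and Cpa3 was detected in 4 Nts cells and 1 other cell. Pecam1, an endothelial adhesion molecule, spanned 0 to 244 TPM in Nts cells and 0 to 6 TPM in other cells. The neuronal genes Syp and Uchl1 summed to 0 to 103 TPM in Nts cells and 0 to 88 TPM in other cells. Cd74, read as a B cell marker, spanned 0 to 526 TPM in Nts cells and 0 to 672 TPM in other cells, Cd68 of myeloid cells 0 to 3 TPM in Nts cells and 0 to 481 TPM in other cells, and the erythroid gene Alas2 0 to 16 TPM in Nts cells and 0 to 101 TPM in other cells. Their part in the differences was not tested.

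Each of the 7641 genes other than Nts detected at 1 TPM or more in at least 10 cells was compared by the difference of its mean log2(TPM + 1), Nts cells minus other cells. A difference of 2 corresponds to a factor of 4 in TPM + 1, and this scale understates differences of low genes. In Nts cells, 106 genes (1.39% of those compared) were at least 2 higher and 10 genes (0.131%) at least 2 lower. The median difference over all genes was 0.16, and 60.2% of genes lay above 0. With genes detected as a term, the counts became 68 higher and 38 lower and the median -0.01. With set and genes detected as terms, they became 85 higher and 62 lower, of which 59 and 10 genes were shared with the counts above. For 0 genes were the groups free of overlap. Over pairs of an Nts cell and another cell, with ties counted as 0.5, the share in which the Nts cell was higher reached at most 79.1% (Akap8), and it was 15.1% for 2610101N10Rik, whose difference was -1.37. Of the 106 genes, 40 were higher in Nts cells within all 5 sets, and of the 10 genes, 7 were lower within all 5. Over all 7641 genes, 305 were higher and 201 lower within all 5 sets. The 106 and 10 genes were picked by their difference over these same cells, which by itself favours the same sign within sets.

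**Figure D2:**
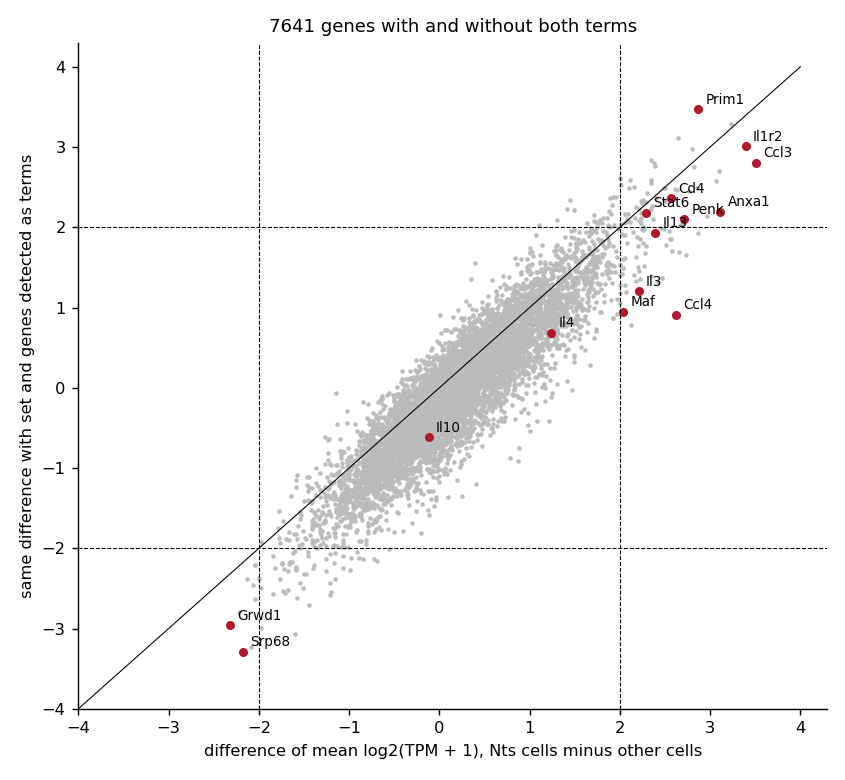
Difference of mean log2(TPM + 1), Nts cells minus other cells, for each of the 7641 genes, without terms (x axis) and with set and genes detected as terms (y axis). Of the 106 genes at 2 or more without terms, 59 stay at 2 or more with both.

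Among neuropeptide precursors, the precursor of the enkephalins stood beside Nts. Penk had a lowest, median and highest value of 2851, 39668 and 105169 TPM in Nts cells, against 10, 13818 and 96921 TPM in other cells. The Nts cells were all high, apart from T5_5 at 2851 TPM, while the other cells ran over nearly the whole scale and overlapped them at the top. Only 1 Nts cell lay below 15451 TPM, against 16 of the 29 other cells, a level set after the values were seen. The difference was 2.71 (2.10 with both terms), and Nts cells were higher within all 5 sets. As a ratio of mean TPM it was smaller, at 1.01 on the log2 scale. The spread of log2 values was narrower in Nts cells (SD 1.05, n = 22) than in other cells (SD 3.84, n = 29). Of the other precursors that entered, Pomc, the source of melanocortins and beta-endorphin, was detected in 4 Nts cells and 10 other cells (difference -0.63), and Nmb, the precursor of neuromedin B, in 4 Nts cells and 7 other cells (-0.52).

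The peptide processing and neurotensin degrading genes that entered stayed below a difference of 1 in size. They cover a small part of this machinery. Of 20 listed processing genes, 7 had values and 3 entered. Of 9 listed receptor and degrading genes, 3 had values and entered, and none of these was a receptor. Furin, a convertase of the secretory pathway, was detected in 22 Nts cells and 27 other cells (difference 0.75), the convertase gene Pcsk7 in 2 Nts cells and 6 other cells (-0.37), and the carboxypeptidase gene Cpd in 15 Nts cells and 23 other cells (-0.84). Of the degrading enzymes, Nln (neurolysin) was detected in 4 Nts cells and 10 other cells (-0.75), Thop1 (thimet oligopeptidase) in 9 Nts cells and 11 other cells (0.55) and Prep (prolyl endopeptidase) in 11 Nts cells and 16 other cells (-0.29).

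The chemokines had the highest median of the 25 lists with 3 or more genes that entered. All 6 that entered lay above 0, 3 of them at 2 or more, with a median of 1.83, against 0.16 over all genes, and of 0.97 with both terms. Of all genes compared, 60.2% lay above 0 and 1.39% at 2 or more. Ccl3, an inflammatory chemokine, had the largest difference of any gene, at 3.51 (2.81 with both terms). It was detected in 12 Nts cells and 3 other cells, so it met the filter of 10 cells mainly through the Nts cells. Its lowest, median and highest values were 0, 1 and 9504 TPM in Nts cells, against 0, 0 and 194 TPM in other cells. It reached 10 TPM in 9 Nts cells and in 1 other cell, T4_1, so that high Ccl3 marked some Nts cells and left the rest at or near 0. Within T5 it was listed at 0 in every cell of both groups.

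Ccl4, a related inflammatory chemokine, had 0, 258 and 45568 TPM in Nts cells, against 0, 7 and 27203 TPM in other cells. The groups overlapped over most of the range, and the difference of 2.63 was 0.91 with both terms and -1.31 within T5. Ccl1, the ligand of CCR8, had 19, 12132.5 and 43946 TPM in Nts cells, against 0, 2165 and 47466 TPM in other cells. Its difference of 2.43 was 1.32 with both terms and -4.23 within T1. Ccl5 was detected in 9 Nts cells and 6 other cells. T2_8 held 90.9% of its TPM over both groups, and its difference of 1.24 was 0.64 without that cell. Xcl1 (0.52) and Cxcl2 (0.33) differed little.

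**Figure D3:**
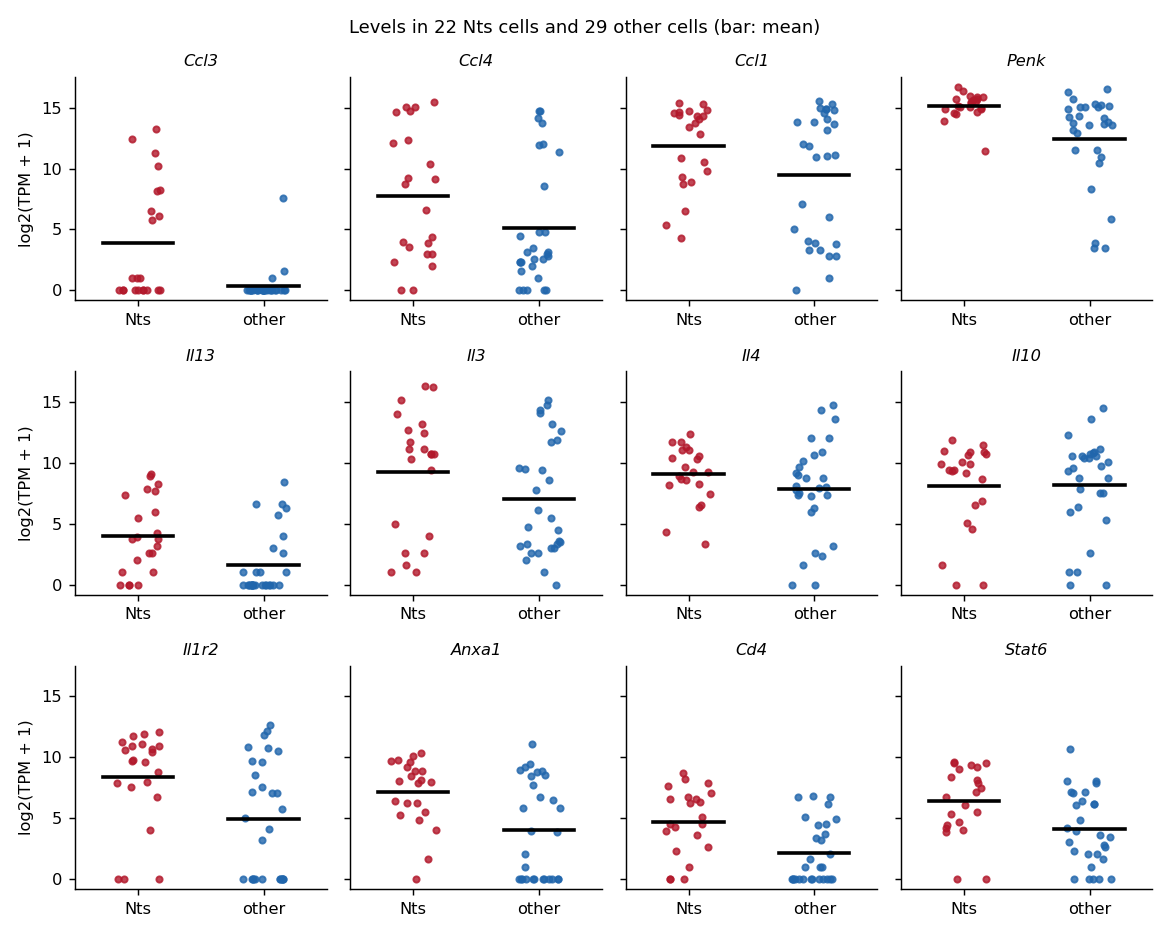
TPM on a log scale in each cell for 12 genes, Nts cells left of other cells, 1 point per cell. Penk lies at 2851 TPM or more in every Nts cell, Ccl3 reaches 10 TPM in 9 Nts cells and 1 other cell, and the groups overlap for each gene shown.

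Of the 11 Th2 cytokines, 8 lay above 0 and 2 at 2 or more, with a median of 0.57. The shares over all genes were 60.2% above 0 and 1.39% at 2 or more, with a median of 0.16. Il13, a cytokine of mucus production and worm expulsion, had a lowest, median and highest of 0, 12 and 536 TPM in Nts cells, against 0, 0 and 339 TPM in other cells. It was detected in 18 of 22 Nts cells and 12 of 29 other cells, and its difference was 2.39 (1.93 with both terms), with -0.24 within T2. Il3, a growth factor of mast cells and basophils, had 1, 1699.5 and 80859 TPM in Nts cells, against 0, 43 and 37192 TPM in other cells. Its difference of 2.21 was 1.20 with both terms and -4.06 within T5, and it lay between 1.87 and 1.99 without T2_8, T2_10, T2_2, T4_3, T3_11 or T2_4.

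The defining cytokine Il4 had 9, 611.5 and 5336 TPM in Nts cells, against 0, 256 and 26918 TPM in other cells. Its difference was 1.24, yet as a log2 ratio of mean TPM it was -1.11, and the highest cell was another cell. Il5, which drives eosinophils, was detected in 8 Nts cells and 5 other cells (1.10), and Il24 in 22 Nts cells and 27 other cells (1.62). Il10, an inhibitory cytokine, had a median of 684.5 TPM in Nts cells and 780 TPM in other cells (-0.12). Il9 (-0.46), Il31 (-0.01), Csf2 (0.57), Il6 (0.47) and Areg (0.41) lay within 1 of 0.

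Among Th2 regulators and receptors, 2 of 17 genes lay at 2 or more, against 1.39% of all genes, and the median was 0.25. Stat6, the transcription factor that transmits the interleukin-4 signal, had 0, 121.5 and 769 TPM in Nts cells, against 0, 11 and 1593 TPM in other cells. Its difference was 2.29 (2.18 with both terms). Maf, an activator of Il4, had medians of 127.5 TPM in Nts cells and 11 TPM in other cells, and its difference of 2.04 was 0.95 with both terms. Gata3 differed by -0.32, and the nuclear receptor gene Pparg by -1.15. Of the 16 genes of T cell identity, Cd4 stood out, with 0, 27 and 404 TPM in Nts cells, against 0, 1 and 109 TPM in other cells. It was higher in Nts cells within all 5 sets (difference 2.56, 2.37 with both terms), whereas the kinase gene Lck was at -1.28.

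The factors named above for the rat promoter differed little as a list, with a median of 0.23 over 19 genes. Of the AP-1 genes, Fos was at 1.46, with detection in 17 Nts cells and 15 other cells. Batf was at 1.02, Junb at 0.69, Jund at 0.56, Jun at 0.52, Fosb at 0.09 and Fosl2 at -0.41. Fosl1, at -0.93 the lowest of the list, was detected in 5 Nts cells and 13 other cells. Creb3, a membrane-bound CREB family factor, was at 2.06, though it lay under 2 in 27 of the 51 removals of a single cell. Crem, a cyclic AMP responsive factor, was at 1.74. Nr3c1, the glucocorticoid receptor, was at -0.81, with detection in 12 of 22 Nts cells and 22 of 29 other cells, and was lower in Nts cells within all 5 sets. Its mean, however, was 28.5 TPM in Nts cells and 28.4 TPM in other cells.

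Over all genes, 60.2% lay above 0, 1.39% at 2 or more and 0.131% at -2 or less. The 23 activation genes had a median of -0.01 and 0 of them lay past 2 in either direction. Egr1, an early gene of receptor signalling, was at -0.98. The 24 G1/S genes had a median of 0.70, with 23 above 0 and 2 at 2 or more. These were Gins2, a subunit of the replicative helicase (2.29), and Tyms, thymidylate synthase (2.08). The 29 G2/M genes had a median of 0.04 and none at 2 or more. Interferon response genes had a median of 0.74, with 11 of 12 above 0. Sterol synthesis genes had a median of 0.77, which was 0.22 with both terms, with Ebp, a sterol isomerase, at 2.14. Cytotoxic granule genes had a median of 0.79 (0.45 with both terms). Their highest member, Gzmb, a serine protease of granules, was at 2.12, and at 0.78 with both terms.

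Among the remaining lists, glycolysis had a median of 0.31, the unfolded protein response 0.30, MHC class I presentation 0.38, secreted tissue factors 0.25, oxidative phosphorylation 0.17 and housekeeping genes -0.08, with 0 genes past 2 in any of these lists. Steroid hormone synthesis had 4 of 4 genes above 0, against 60.2% of all genes, and a median of 0.72, which was -0.06 with both terms. Among it, Cyp11a1, the enzyme of the first step from cholesterol, had a difference of 1.03 (0.20 with both terms), although its median was 860.5 TPM in Nts cells and 988 TPM in other cells. Genes of other T helper fates had medians of 0.04 (Th1), 0.17 (Treg) and -0.00 (Tfh). Genes of naive T cells had a median of 0.19, with the homing receptor Ccr7 at 2.00.

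**Figure D4:**
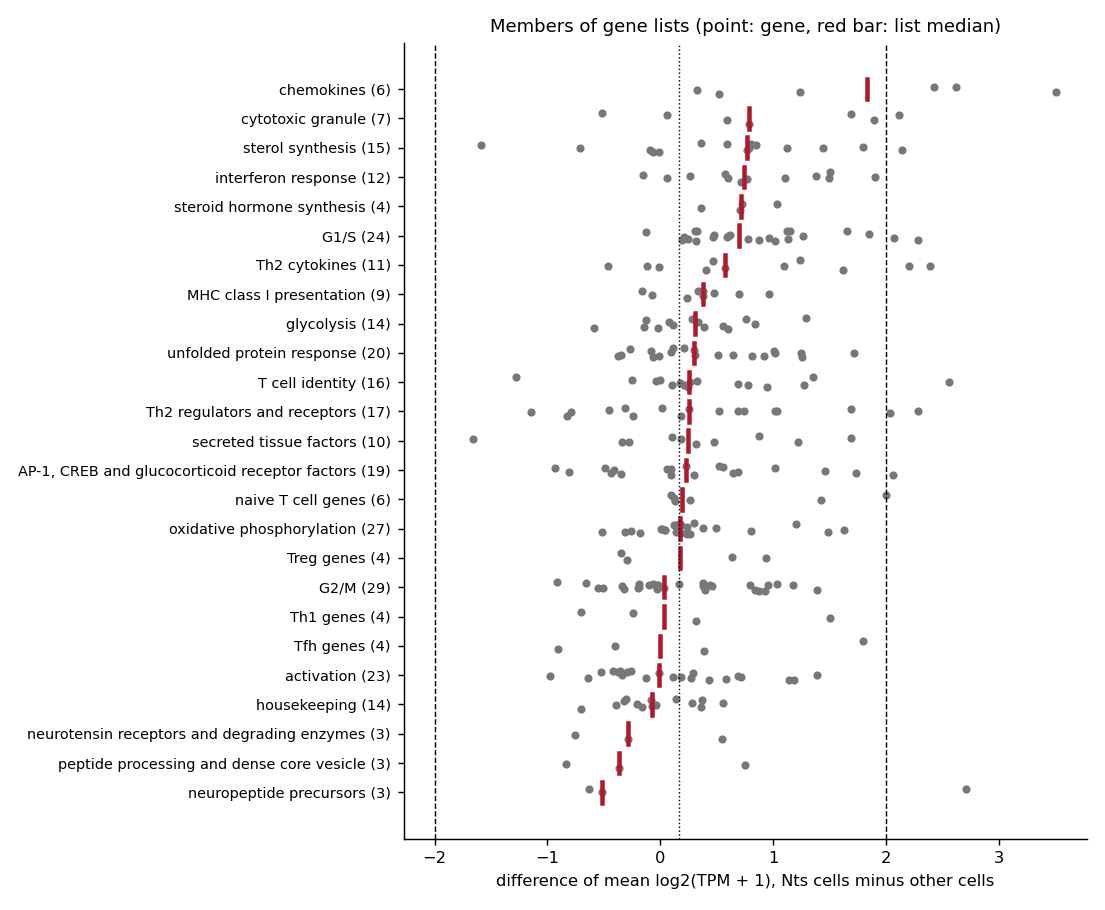
Differences of mean log2(TPM + 1), Nts cells minus other cells, for the members of each gene list that entered (points, with their number in brackets) and the list's median (red bar), with dashed lines at -2 and 2 and a dotted line at the median of all genes. The chemokines have the highest median, at 1.83, and the activation genes lie around 0.

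The other genes with the 12 largest positive differences came from no single list. Il1r2, a decoy receptor that binds interleukin-1 without signalling, had 0, 844.5 and 4218 TPM in Nts cells, against 0, 31 and 6440 TPM in other cells. Its difference was 3.39 (3.01 with both terms), and Nts cells were higher within all 5 sets although the highest cell was another cell. 2810428I15Rik had 2, 67.5 and 764 TPM in Nts cells, against 0, 1 and 435 TPM in other cells. It was detected in all 22 Nts cells and in 16 of 29 other cells (difference 3.23, 3.28 with both terms). Anxa1, a phospholipid-binding protein that glucocorticoids induce, had medians of 255 TPM in Nts cells and 13 TPM in other cells (3.11), but was lower in Nts cells within T1 (-2.02) and T4 (-0.40).

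Idh3b, a subunit of a citric acid cycle enzyme, was at 3.09, and Ctsd, a lysosomal protease, at 2.96. Snora28, a small nucleolar RNA, was detected in 10 Nts cells and 3 other cells (3.07), so it met the filter mainly through the Nts cells. Its reads cannot be told apart from those of an overlapping gene without knowing how they were counted. Prim1, a primase subunit, was at 2.87, the membrane protein gene Pdzk1ip1 at 2.86, and the tetraspanin gene Cd81 at 2.86. Akap8, a nuclear anchor of protein kinase A, was at 2.82 and Dynlt3, a dynein light chain, at 2.80. Within sets, some of these genes were lower in Nts cells: Cd81 in T1 (-1.03) and T3 (-3.42), Ctsd in T1 (-0.48) and T3 (-0.16), Idh3b in T2 (-0.17), Snora28 in T3 (-0.29) and Akap8 in T5 (-0.16). With both terms, Pdzk1ip1 came to 1.93 and the other genes of these 12 stayed at 2 or more.

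Of the genes lower in Nts cells, Grwd1, a ribosome assembly factor, had medians of 4 TPM in Nts cells and 134 TPM in other cells and the largest negative difference of all, -2.32. Txnl4b, a splicing factor, was at -2.22 with detection in 7 Nts cells and 16 other cells. Srp68, a subunit of the signal recognition particle, was at -2.18, and at -1.97 without T4_4. Rbmx, an RNA-binding protein of splicing, was at -2.13. 4833420G17Rik was at -2.08, the nucleolar Mki67ip at -2.06, Wac at -2.04, Toe1, a deadenylase, at -2.04, 4930453N24Rik at -2.05, and Mrps18b of the mitochondrial ribosome at -2.004. Just short of -2 were Nup43 of the nuclear pore (-1.998) and Ganab, a glucosidase of the endoplasmic reticulum (-1.97). Within sets, Srp68 was higher in Nts cells in T2 (1.06), Toe1 in T1 (1.88) and T3 (2.67) and Mrps18b in T4 (0.11). Of the 10 genes past -2, only Grwd1 and Txnl4b stayed past it whichever single cell was removed, and all 10 stayed past it with both terms.

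Nts ran across the 54 cells most closely with Lrrc8c, a subunit of volume-regulated anion channels (Spearman rho 0.52). B3gnt4 (0.51), the stress kinase gene Map3k5 (0.48), Pik3r1, a regulatory subunit of phosphoinositide 3-kinase (0.48), and Dcaf11 (0.47) followed. The lowest values were those of 2610101N10Rik (-0.54), AW146020 (-0.47), Mki67ip (-0.45), and Trmt61a and Sf3a3 (both -0.43). The cells share sets and differ in genes detected, and these correlations carry no test. They use the same Nts values that formed the groups, and some of these genes met the filter of 10 cells mainly through 1 group. Map3k5 was detected in 14 Nts cells and 3 other cells, and Dcaf11 in 12 Nts cells and 4 other cells. B3gnt4 and Pik3r1 were also detected mainly in Nts cells. B3gnt4 reached 10 TPM in 3 Nts cells and 1 other cell, Pik3r1 in 8 and 0, AW146020 in 0 and 4, and Trmt61a in 1 and 5. Lrrc8c was detected in 16 Nts cells and 7 other cells. Within the 22 Nts cells, rho with Nts was 0.09 for Lrrc8c, 0.01 for Penk and -0.00 for Ccl3.

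To see whether levels followed the amount of Nts, the cells were split into Nts listed at 0 (n = 11), 1 to 9 TPM (n = 18), 100 TPM to under 1000 TPM (n = 10) and 1000 TPM or more (n = 12), classes chosen after the values were seen. Ccl3 was detected in 1, 2, 5 and 7 cells of these classes in that order. Mean log2(TPM + 1) of Penk was 12.97, 12.13, 14.995 and 15.30, that of Cd4 2.14, 2.14, 4.68 and 4.72, and that of Il1r2 3.08, 6.07, 7.54 and 8.99. Penk and Cd4 thus differed between the classes below 10 TPM and those at 100 TPM or more, and less within each pair. That step restates the difference between the groups, so it cannot show whether levels followed the amount of Nts. The mean of Il1r2 was higher in each next class. Within the Nts cells alone, however, Spearman rho of Il1r2 with Nts was -0.15, so its ranks showed no rise with Nts there. Median genes detected were 4737, 4692.5, 4845.5 and 4896.5.

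**Figure D5:**
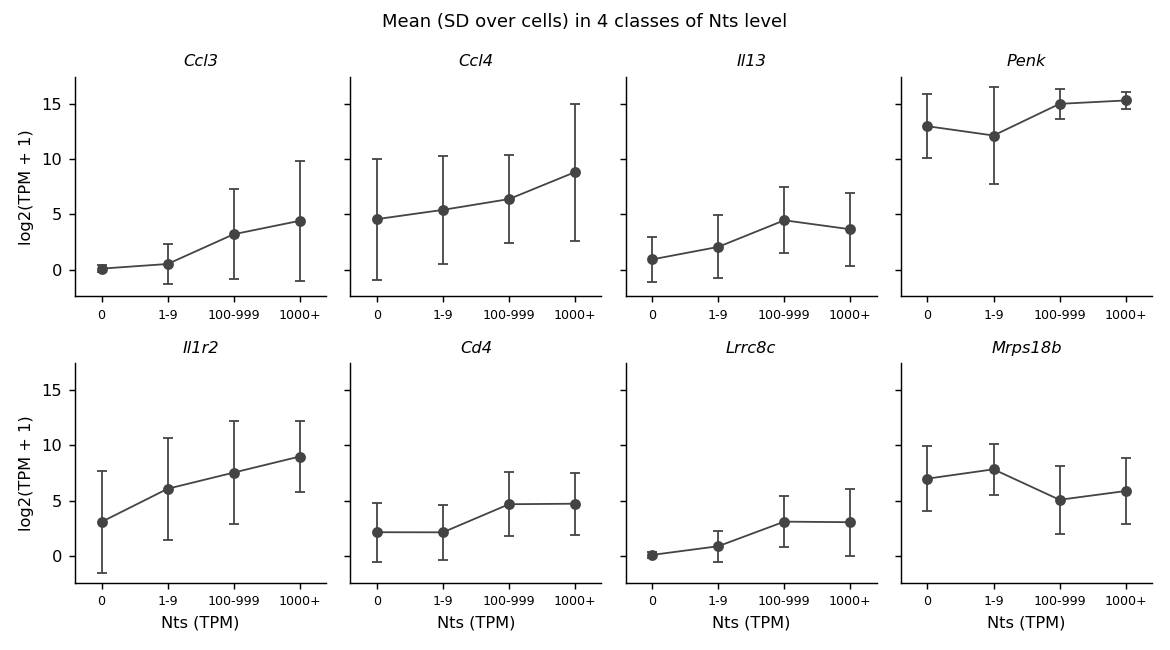
Mean log2(TPM + 1) with SD over cells for 8 genes in 4 classes of Nts level, from Nts listed at 0 (11 cells) to 1000 TPM or more (12 cells). Penk and Cd4 step between the second and the next class, which restates the difference between the groups. The mean of Il1r2 is higher in each class than in the one before, while its rho with Nts within the Nts cells is -0.15.

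The AP-1 and CRE-like motifs of the Nts window were looked for on both strands in the same window of the genes that entered. So were the cyclic AMP response element TGACGTCA, which the Nts window does not hold, and GGAAAA, a core motif of NFAT factors. AP-1 (TGAGTCA) was in 3 of 76 windows of genes at 2 or more (3.95%) and in 149 of 5518 windows of all genes that entered (2.70%). The cyclic AMP response element (TGACGTCA) was in 2 of 76 (2.63%), against 3.14% of all, and the CRE-like motif (TGACATCA) in 1 of 76 (1.32%), against 1.36%. The NFAT core was in 20 of 76 (26.3%), against 18.7% of all. None of these shares was tested. The 3 genes with AP-1 were Gzmb, Irgm1, an interferon-induced GTPase, and Ifi35. They are shown with up to 30 bases on either side, from RefSeq on GRCm38.p6, with the motif in capitals, as chr14:56262356-56262422 (minus strand), chr11:48871499-48871565 (minus strand) and chr11:101448162-101448198 (plus strand, where the motif reads on the opposite strand).
Gzmb: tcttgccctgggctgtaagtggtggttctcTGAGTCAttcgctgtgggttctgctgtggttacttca
Irgm1: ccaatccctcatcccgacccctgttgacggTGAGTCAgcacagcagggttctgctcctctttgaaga
Ifi35: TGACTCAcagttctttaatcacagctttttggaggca
A match is a match of letters only. The windows of Ccl3, Il1r2, Anxa1, Il13, Il3, Ccl1, Creb3 and Stat6 held none of the AP-1, cyclic AMP response element and CRE-like motifs.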

How the data were processed

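RNA of single Th2 cells was sequenced by the submitters. The deposited values are a score, namely TPM rounded by the authors to whole numbers (column sums 999202 to 999914). The submitters' processing notes name mm9, Bowtie 0.12.2, Cufflinks and FastQC without roles. Sequencing depth cannot be recovered from TPM and is unknown, and a value of 0 is reported as listed at 0. The pooled library of 10000 cells was not used.

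Cells were grouped by Nts (100 TPM or more, below 10 TPM). Genes detected (1 TPM or more) in at least 10 cells were compared by mean log2(TPM + 1), with a pseudocount of 1 TPM. A difference of 2 or more in size was counted. Because the cells are 1 sample, no p-value or standard error was made. Set and genes detected entered as terms of a linear model by least squares. Of the 1431 pairs of cells kept, 0 held identical values. The scripts (python 3.11.15, numpy 2.4.6, pandas 2.3.3, scipy 1.17.1, matplotlib 3.10.9) were tested on simulated data.

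The rule for genes to name took Nts, the 12 largest differences in each direction that kept their sign with the terms and without any 1 Nts cell, all members of the peptide, receptor, cytokine and chemokine lists that entered, up to 4 members of each other list, and the 5 highest and 5 lowest correlations with Nts. The text gives most of these. It adds Gata3, Cd3d, AP-1 genes other than Fosl1, Irgm1, Ifi35, markers of other cell types and families of genes. The rule did not take these additions. The members, the 33 gene lists and the rules were chosen with earlier results of these data known. Symbols were matched to GRCm38.p6 (9501 current, 949 older, 115 unmatched), and promoters came from RefSeq on that build. Alternatives were the pseudocount, medians, mean TPM, the filter, the Nts thresholds, T3_2 and T3_5 kept, scaling, the terms, each set left out and each cell left out. The removal of other cells was chosen after seeing the data.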

Additional observations from a re-analysis of the deposited data

Results flagged for a closer look

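Nts was also present in the cells that the comparison did not use. It had 335 TPM in T3_2 and 1005 TPM in T3_5, which were left out, and 20 TPM in T1_1, 18 TPM in T2_7 and 26 TPM in T3_6, which lay between the thresholds. With T3_2 and T3_5 kept among the Nts cells, 88 genes were at least 2 higher and 7 at least 2 lower, of which 83 and 7 were shared with the 106 and 10 genes of the comparison.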

How the results depend on the processing

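The number of genes at least 2 higher and at least 2 lower in Nts cells (106 and 10) depended on the scale and on the cells. It was 9 and 0 with log2(TPM + 10), 638 and 178 with medians, 290 and 280 with the log2 ratio of mean TPM (sharing 25 of the 106 and 3 of the 10 genes, with Il1r2 at 0.74, Anxa1 at 0.81 and Ccl1 at 0.35), and 265 and 67 against other cells with Nts listed at 0. It was 126 and 16 for Nts cells at 500 TPM or more, 123 and 29 with set as a term, 68 and 38 with genes detected as a term, 85 and 62 with both, and 106 and 4 with median-ratio scaling. Without a set it was 163 and 23 (T1), 198 and 28 (T2), 128 and 27 (T3), 123 and 24 (T4) and 172 and 19 (T5). A difference of 1 gave 1010 and 298 genes, and a difference of 3 gave 6 and 0. Without single cells the counts ran from 93 (without T4_3) to 121 (without T2_12) and from 7 (without T2_10) to 15 (without T2_9). The cause of these changes was not tested. Of the genes named, Maf lay under 2 in 27 single removals, Creb3 in 27, Ccr7 in 31, Tyms in 19, Gzmb in 19, Map3k5 in 9, Ebp in 4 and Dcaf11 in 2, and among lower genes 4930453N24Rik in 29, Mrps18b in 27, Toe1 in 25, Wac in 19, Mki67ip in 10, 4833420G17Rik in 8 and Rbmx in 4. No paired analysis was possible because the numbers of the cells pair none of them between groups. The set served as a block in the values with set as a term. Rounded TPM without depth limits all low values.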

Other observations

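Families picked after the values were seen add to the genes above, as descriptions. They stand against 60.2% of all genes above 0. All 6 annexins that entered lay above 0 (median 1.20, and 1.12 with set and genes detected as terms), as did all 5 acyl-CoA dehydrogenases of fatty acid oxidation (median 1.22, with Acadm at 2.48 and Acadvl at 2.05). All 9 interferon-inducible Ifi and Ifitm genes lay above 0 (median 0.89), with Ifitm2 at 2.73 and Ifi35 at 2.70. Ifitm genes resemble each other, so their values are uncertain. Of the 7 cathepsins, 5 lay above 0. So did 10 of 17 sorting nexins, 9 of 14 tetraspanins, 5 of 6 peroxiredoxins and 2 of 2 immunity-related GTPases. Of larger families, 24 of 37 proteasome subunits and 49 of 76 mitochondrial ribosomal protein genes lay above 0. Their medians with both terms were -0.05 and -0.19. Among 12 subunits of the vacuolar ATPase, the proton pump of lysosomes, Atp6v1c1 was at 2.21 and Atp6v1h at 2.07, and the median was 0.43 (0.09 with both terms). Of 75 cytosolic ribosomal protein genes, 60 lay below 0 (median -0.17) and 0 past 2 in either direction.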
